A study of Mus musculus and Homo sapiens with 16 samples.

Results

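Serpins are protease inhibitors that act as bait. A protease cuts the serpin's exposed reactive loop, and the serpin then snaps into a new fold and traps the enzyme in a dead complex. Clade A3 serpins are secreted and are the mouse relatives of human alpha-1-antichymotrypsin, while clade B serpins mostly stay inside the cell. In the epidermis, clade B serpins are known for restraining proteases during cornification and desquamation, the hardening and shedding of the outer layers.

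The genes described here are 10 serpins of clades A3 and B: Serpinb5, Serpinb12, Serpinb3a, Serpinb11, Serpinb2, Serpinb8, Serpina3b, Serpina3j, Serpina3n and Serpinb1a. They were selected by name, from measured values of the same libraries, out of 43 genes whose symbols begin with Serpina3 or Serpinb and 39179 genes counted in all. For that reason their genotype effects are given as a description, with fold changes and standard errors (SE) and no test of their own. All 10 were found in the files by symbol.

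The series concerns KLF5, an epithelial zinc-finger transcription factor, in skin epithelium of C57BL/6 mice. The embryonic E17.5 set comprised 3 libraries labelled Klf5-/- and 3 labelled Klf5+/-. Dispase-peeled epidermis was trypsinised, and live (DAPI-), CD45-, integrin A6+ cells were sorted from it. A further set, titled HFD without any expansion of those letters, comprised 2 libraries labelled Klf5-/- and 2 labelled Klf5+/-. It was made from unsorted peeled epidermis that had been ground in liquid nitrogen, with no stage given. KLF5 ChIP-seq, H3K27ac ChIP-seq and ATAC-seq came from 1 sample each of sorted E17.5 epithelium with the genotype label wild type, although the title of the ATAC sample reads Het. Every control for RNA carried 1 mutant Klf5 allele, and no wild-type RNA was compared. The sources used here do not give the promoter that drives any Cre, the deleted part of Klf5, or whether each library is another animal, so the spread between libraries may be technical.

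The RNA libraries held 31819010 to 46445546 counts on genes, and a floor of 3 counts lies at 0.0646 to 0.0943 CPM, the unit used here for counts after TMM scaling to library size within each set. Klf5 counts were not lower under the Klf5-/- label: the E17.5 Klf5-/- libraries had 6934, 7211 and 6501, against 8376, 6609 and 6624 under the Klf5+/- label. The HFD Klf5-/- libraries had 2953 and 4956, against 2523 and 1575 under the Klf5+/- label. In CPM the HFD values were 101 and 120 in Klf5-/-, against 62.8 and 42.8 in Klf5+/-. The log2 fold change of Klf5, Klf5-/- over Klf5+/-, was 1.06 there (SE 0.23, edgeR adjusted p = 0.0533) and 0.02 at E17.5 (SE 0.10). Counts over the whole gene can include exons that a deletion leaves in place, so they do not check the labels, and Klf5-/- and Klf5+/- below mean libraries so labelled. Summed basal keratinocyte markers lay between 22622.8 and 29647.2 CPM in the sorted libraries and between 9887.9 and 20264.4 CPM in the unsorted ones. The sets differ in sorting, preparation and library kit and were scaled separately, so levels set side by side across them are not on 1 scale.

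Of these serpins, Serpinb5 was the only one with a KLF5 peak within 5 kb of its gene start, and its promoter is shown first for that reason. The promoter of Serpinb8 is shown because it carried open chromatin and H3K27ac, a histone mark of active promoters and enhancers, without a KLF5 peak, and that of Serpinb3a because it carried open chromatin alone. The promoters of Serpina3b and Serpina3n are shown because these related genes differed in opposite directions between the genotypes of the HFD set. Each is the RefSeq promoter window of GRCm38.p6, 300 bases on the strand of the gene, with capitals for matches to the motifs named below. The windows are chr1:106860925-106861224 for Serpinb5 (plus strand), chr1:107589756-107590055 for Serpinb8 (plus), chr1:107052254-107052553 for Serpinb3a (minus), chr12:104127746-104128045 for Serpina3b (plus) and chr12:104406458-104406757 for Serpina3n (plus). A promoter entry was found for 9 of the 10 genes, and Serpinb1a had none.
Serpinb5: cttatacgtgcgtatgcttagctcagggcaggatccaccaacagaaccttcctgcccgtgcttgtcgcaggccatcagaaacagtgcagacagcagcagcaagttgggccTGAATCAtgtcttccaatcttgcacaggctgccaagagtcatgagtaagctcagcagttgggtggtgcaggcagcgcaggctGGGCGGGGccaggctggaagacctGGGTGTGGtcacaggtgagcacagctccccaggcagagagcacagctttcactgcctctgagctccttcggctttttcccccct
Serpinb8: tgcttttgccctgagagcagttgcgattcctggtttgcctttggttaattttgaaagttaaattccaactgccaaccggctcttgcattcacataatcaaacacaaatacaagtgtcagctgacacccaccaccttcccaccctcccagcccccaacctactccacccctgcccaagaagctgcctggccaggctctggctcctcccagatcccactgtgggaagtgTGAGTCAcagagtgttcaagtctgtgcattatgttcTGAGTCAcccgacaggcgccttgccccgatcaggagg
Serpinb3a: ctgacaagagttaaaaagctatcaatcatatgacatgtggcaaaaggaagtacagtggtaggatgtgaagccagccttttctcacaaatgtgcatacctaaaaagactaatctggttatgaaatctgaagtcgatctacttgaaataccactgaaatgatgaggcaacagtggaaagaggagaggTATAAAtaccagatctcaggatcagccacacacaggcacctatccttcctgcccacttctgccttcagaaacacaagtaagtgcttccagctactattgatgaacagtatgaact
Serpina3b: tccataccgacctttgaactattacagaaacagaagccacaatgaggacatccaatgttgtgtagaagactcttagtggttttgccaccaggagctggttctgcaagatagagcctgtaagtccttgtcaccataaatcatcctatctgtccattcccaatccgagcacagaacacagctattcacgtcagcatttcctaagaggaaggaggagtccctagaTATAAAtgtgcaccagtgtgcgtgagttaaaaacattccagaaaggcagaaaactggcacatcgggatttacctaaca
Serpina3n: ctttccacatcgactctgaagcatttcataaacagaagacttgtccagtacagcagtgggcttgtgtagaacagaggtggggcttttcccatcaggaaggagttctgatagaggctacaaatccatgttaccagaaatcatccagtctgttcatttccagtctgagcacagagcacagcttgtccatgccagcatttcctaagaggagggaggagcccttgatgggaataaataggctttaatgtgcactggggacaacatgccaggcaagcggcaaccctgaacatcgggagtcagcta

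The motifs searched on both strands were CCNCNCCC, the GC-rich box that Krüppel-like factors bind, TGANTCA, the site of AP-1 factors, and TATAAA, the TATA box. No match of one overlapped a match of another in the windows printed. Serpinb5 held 2 CCNCNCCC matches, at -58 and -34 bases relative to its start and both on the opposite strand, and 1 AP-1 match. Serpinb8 held 2 AP-1 matches on either side of its start, and its neighbours in the printed set held a TATA box each (Serpinb3a and Serpina3b) or no match (Serpina3n). The Serpina3b and Serpina3n windows aligned with 214 identical bases, 74 mismatches and 24 gapped positions, an identity of 68.6%, and the TATA box of Serpina3b was not matched in Serpina3n. Of the 9 genes with an entry, 3 held a CCNCNCCC match, 5 an AP-1 match and 4 a TATA match in at least 1 window. Counted per gene in the same way, the shares over all 27025 genes with a window were 51.9%, 9.0% and 15.7%. Over the 34 listed Serpina3 and Serpinb genes with a window they were 38.2%, 20.6% and 38.2%. Counted per window, the shares over all 32851 windows were 49.47%, 7.81% and 13.62%. A match is a description of the letters and does not show that a factor binds there.

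In the HFD set, 8 of the 10 serpins had higher means in the Klf5-/- libraries, while Serpina3n and Serpinb1a had lower ones. At E17.5 Serpinb5, Serpinb12, Serpinb3a and Serpinb2 of chromosome 1 had lower means in the Klf5-/- libraries. Serpinb11, also of chromosome 1, had a higher mean there, as did Serpina3b and Serpina3j. Serpinb8, of chromosome 1 too, and Serpinb1a were slightly higher, with log2 fold changes of 0.12 each. The median log2 fold change, Klf5-/- over Klf5+/-, was 0.89 over the 10 serpins in the HFD set and 0.12 over the 9 tested at E17.5, against -0.01 and 0.01 over all genes tested. Since the 10 were chosen from measured values of these libraries, that contrast is a description only. Over all Serpina3 and Serpinb genes tested, taken by symbol, the medians were 0.72 in the HFD set and 0.12 at E17.5. In bulk libraries such as these, fewer cells of a type and less RNA per cell cannot be told apart.

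**Figure D1:**
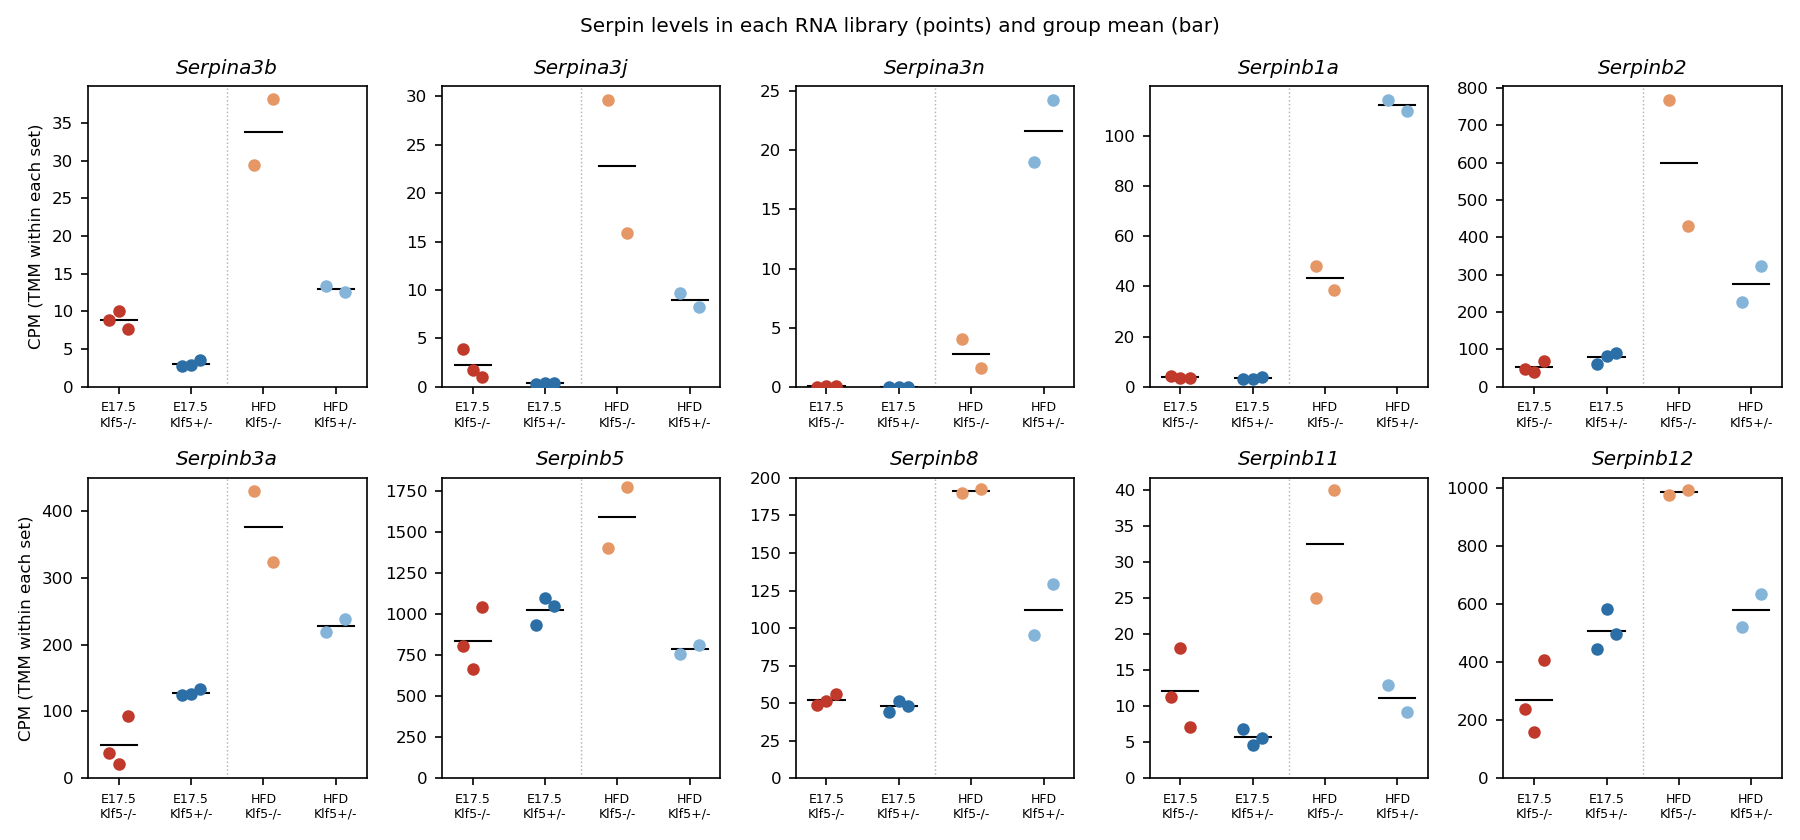
Level of each serpin in CPM (y axis, linear from 0, its own range in each panel) in every library, by set and genotype; bars are group means. In the HFD panels the genotypes do not overlap for any of the 10 genes, which also holds for 60.1% of all genes tested in that set. Serpina3n and Serpinb1a are the pair with the Klf5-/- libraries below.

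Serpinb5, or maspin, is a serpin without inhibitory activity that is known as a tumour suppressor of mammary epithelium. Serpinb5 (ENSMUSG00000067006, mm10 chromosome 1, 106861173 to 106883348, plus strand) had 807, 668.5 and 1041 CPM in the E17.5 Klf5-/- libraries and 931.5, 1096 and 1049.5 CPM in the Klf5+/- libraries. The third Klf5-/- library reached the Klf5+/- range, so the groups overlapped, with a log2 fold change of -0.29 (SE 0.15). In the HFD set Serpinb5 had 1402 and 1777 CPM in the Klf5-/- libraries and 759 and 812 CPM in the Klf5+/- libraries, a log2 fold change of 1.02 (SE 0.22). Every Klf5-/- library there lay above every Klf5+/- library.

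Serpinb12, an inhibitor of trypsin-like serine proteases, lies next to Serpinb5 (ENSMUSG00000059956, chromosome 1, 106934449 to 106957080, plus strand). At E17.5 Serpinb12 had 239, 159 and 408 CPM in the Klf5-/- libraries and 445.5, 582 and 499 CPM in the Klf5+/- libraries, a log2 fold change of -0.92 (SE 0.34). Serpinb12 had 975 and 995 CPM in the HFD Klf5-/- libraries and 522 and 636 CPM in the Klf5+/- libraries, a log2 fold change of 0.77 (SE 0.21). The genotypes did not overlap in either set, but the Klf5-/- libraries were the lower ones at E17.5 and the higher ones in the HFD set.

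Serpinb3a is the mouse counterpart of the human squamous cell carcinoma antigens, which inhibit papain-like cathepsins and chymotrypsin-like proteases. Serpinb3a (ENSMUSG00000044594, chromosome 1, 107045587 to 107052337, minus strand) had 37.4, 21.1 and 93.2 CPM in the E17.5 Klf5-/- libraries and 124, 126 and 134 CPM in the Klf5+/- libraries, a log2 fold change of -1.34 (SE 0.59). The Klf5-/- libraries were all lower and far more spread out than the Klf5+/- libraries, and without the third Klf5-/- library the log2 fold change was -2.14. Serpinb3a had 429.7 and 323 CPM in the HFD Klf5-/- libraries and 218 and 239 CPM in the Klf5+/- libraries, a log2 fold change of 0.72 (SE 0.21), with no overlap. Serpinb3a has near-identical neighbours (Serpinb3b, Serpinb3c and Serpinb3d) and reads that align to several places were not counted, so its level is less certain than those of single-copy genes, and the same holds for the clade A3 genes.

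Serpinb2, plasminogen activator inhibitor type 2, blocks urokinase and tissue plasminogen activator. Serpinb2 (ENSMUSG00000062345, chromosome 1, 107511423 to 107535478, plus strand) had 48.2, 38.5 and 70.0 CPM in the E17.5 Klf5-/- libraries and 62.1, 83.7 and 91.4 CPM in the Klf5+/- libraries, a log2 fold change of -0.60 (SE 0.23). The groups overlapped, with the third Klf5-/- library above the first Klf5+/- library. Serpinb2 had 769 and 431 CPM in the HFD Klf5-/- libraries and 226 and 322 CPM in the Klf5+/- libraries, a log2 fold change of 1.13 (SE 0.33), without overlap. Its annotation shares 6476 bases with Serpinb10 on the same strand, so reads from the shared stretch are uncertain for both genes.

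Serpinb8 inhibits furin, and loss of its human counterpart causes a peeling skin disorder. Serpinb8 (ENSMUSG00000026315, chromosome 1, 107590006 to 107608909, plus strand) had 48.8, 51.2 and 56.1 CPM in the E17.5 Klf5-/- libraries and 44.4, 51.6 and 48.0 CPM in the Klf5+/- libraries, a log2 fold change of 0.12 (SE 0.10). The groups overlapped, and no library stood apart from the rest. Serpinb8 had 189.6 and 193 CPM in the HFD Klf5-/- libraries and 95.4 and 129 CPM in the Klf5+/- libraries, a log2 fold change of 0.77 (SE 0.20), without overlap.

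Serpinb11, whose mouse protein inhibits trypsin-like proteases, had higher means in the Klf5-/- libraries of both sets. Serpinb11 (ENSMUSG00000026327, chromosome 1, 107361929 to 107380475, plus strand) had 11.3, 18.1 and 7.10 CPM in the E17.5 Klf5-/- libraries and 6.86, 4.69 and 5.62 CPM in the Klf5+/- libraries, a log2 fold change of 1.08 (SE 0.32). The third Klf5-/- library lay only just above the first Klf5+/- library. Serpinb11 had 25.01 and 40.02 CPM in the HFD Klf5-/- libraries and 13.0 and 9.22 CPM in the Klf5+/- libraries, a log2 fold change of 1.55 (SE 0.31), without overlap.

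The clade A3 genes lie together on chromosome 12, in a cluster that is a single gene in humans. Serpina3b (ENSMUSG00000066364, chromosome 12, 104127996 to 104139545, plus strand) had 8.84, 9.99 and 7.635 CPM in the E17.5 Klf5-/- libraries and 2.74, 2.91 and 3.585 CPM in the Klf5+/- libraries, a log2 fold change of 1.52 (SE 0.19). Serpina3b had 29.4 and 38.1 CPM in the HFD Klf5-/- libraries and 13.4 and 12.5 CPM in the Klf5+/- libraries, a log2 fold change of 1.38 (SE 0.22). All Klf5-/- libraries lay above all Klf5+/- libraries in both sets, with fold changes of similar size.

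Serpina3j (ENSMUSG00000079013, chromosome 12, 104314553 to 104320725, plus strand) had 3.895, 1.74 and 1.04 CPM in the E17.5 Klf5-/- libraries and 0.302, 0.361 and 0.417 CPM in the Klf5+/- libraries, a log2 fold change of 2.62 (SE 0.51). Serpina3j had 29.6 and 15.9 CPM in the HFD Klf5-/- libraries and 9.73 and 8.21 CPM in the Klf5+/- libraries, a log2 fold change of 1.34 (SE 0.34). The genotypes did not overlap in either set, but the Klf5-/- libraries varied widely among themselves. Without the first Klf5-/- library of the set the log2 fold change was 1.95 at E17.5 and 0.85 in the HFD set, and without that of E17.5 the difference between the sets, given below, was -0.64 in place of -1.27.

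Serpina3n, a secreted inhibitor of granzyme B and neutrophil elastase, was nearly silent in the sorted embryonic cells. Serpina3n (ENSMUSG00000021091, chromosome 12, 104406729 to 104414329, plus strand) had 0, 2 and 2 counts in the E17.5 Klf5-/- libraries and 0 counts in each Klf5+/- library, all under the floor of 3 counts, and it did not pass the filter on low counts. Serpina3n had 4.04 and 1.57 CPM in the HFD Klf5-/- libraries and 19.0 and 24.2 CPM in the Klf5+/- libraries, a log2 fold change of -2.96 (SE 0.48). The Klf5-/- libraries were both far below the Klf5+/- libraries, the reverse of Serpina3b and Serpina3j in the same cluster. Other genes of the cluster lay on either side of 0 in the HFD set, with Serpina3c (-1.25) also below it and Serpina3h (1.37) above it.

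Serpinb1a, an inhibitor of neutrophil elastase, cathepsin G and proteinase 3, lies on chromosome 13 (ENSMUSG00000044734, 32842092 to 32851185, minus strand). Serpinb1a had 4.41, 3.44 and 3.44 CPM in the E17.5 Klf5-/- libraries and 3.02, 3.305 and 4.05 CPM in the Klf5+/- libraries, a log2 fold change of 0.12 (SE 0.22), with overlap. Serpinb1a had 48.1 and 38.6 CPM in the HFD Klf5-/- libraries and 114 and 110.1 CPM in the Klf5+/- libraries, a log2 fold change of -1.37 (SE 0.18). Neither Klf5-/- library came near the Klf5+/- libraries.

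**Figure D2:**
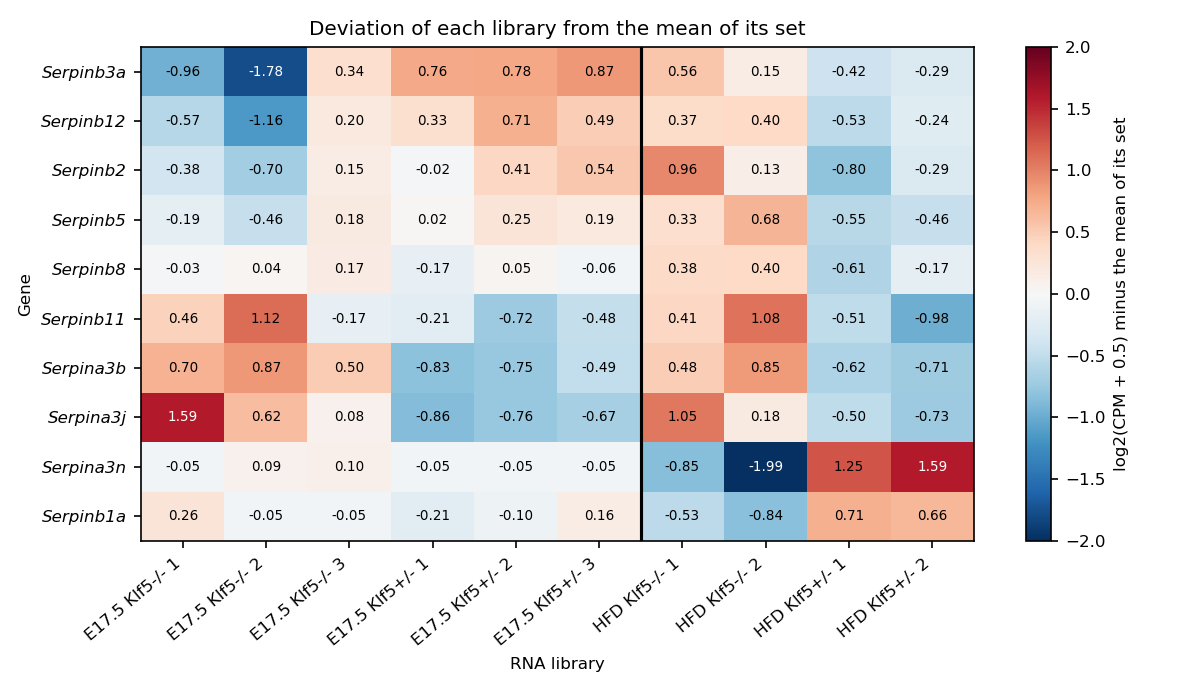
Heat map of log2(CPM + 0.5) minus the mean of the same set, with genes down and the 10 libraries across. In the E17.5 columns the second Klf5-/- library is the lowest for Serpinb3a (-1.78), Serpinb12 (-1.16), Serpinb2 (-0.70) and Serpinb5 (-0.46), and the third Klf5-/- library is above 0 for these genes.

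The Klf5-/- libraries of E17.5 differed among themselves for Serpinb5, Serpinb12, Serpinb3a and Serpinb2 in 1 shared order, lowest in the second library and highest in the third. The summed level of 10 suprabasal keratinocyte markers, mostly Krt1 and Krt10, had the same order. It was 38223.6, 32354.8 and 51038.8 CPM in the Klf5-/- libraries against 69171.2, 75953.4 and 60107.6 CPM in the Klf5+/- libraries. Singly, Krt1, Krt10, Krtdap, Sbsn, Dsg1a, Dsc1, Flg and Tgm3 had that order in the Klf5-/- libraries. Lor (947.8, 945.9 and 609.3 CPM) was lowest in the third Klf5-/- library, and Ivl (76.5, 86.9 and 108.3 CPM) in the first. All 10 of these markers had log2 fold changes below 0 at E17.5, with a median of -0.62. None passed edgeR's adjusted p of 0.05, while 9 had an unadjusted p under 0.05 and DESeq2 called 8. All 10 were above 0 in the HFD set, with a median of 0.91 and 1 called higher, and their summed level was 51300.3 and 56231.1 CPM in the Klf5-/- libraries against 24507.4 and 25355.4 CPM in the Klf5+/- libraries. The part of these marker levels in the serpin values was not tested.

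The HFD libraries also differed in markers of other cell types. The 8 fibroblast markers all had log2 fold changes below 0, with a median of -2.92, and summed to 4481.5 and 693.7 CPM in the Klf5-/- libraries against 16052.5 and 19475.1 CPM in the Klf5+/- libraries. None of the 8 was called by edgeR, with 3 at an unadjusted p under 0.05 and 2 called by DESeq2. The 5 endothelial markers were also all below 0 and summed to 53.5 and 12.2 CPM in the Klf5-/- libraries against 274 and 314 CPM in the Klf5+/- libraries. No fibroblast or endothelial marker was at 0 in all libraries. The 7 immune markers counted summed to 127 and 85.4 CPM in the Klf5-/- libraries against 174 and 169 CPM in the Klf5+/- libraries. Of the 6 immune markers tested, 3 were above 0 and 3 below, with 1 called lower by edgeR. The 8 markers of stressed keratinocytes summed to 2591.7 and 6040.2 CPM in Klf5-/- against 1205.2 and 1247.2 CPM in Klf5+/-. Of these, 6 were above 0 and 2 below, with 1 called higher by edgeR. Neither of these lists moved in a single direction, so their sums do not stand for every marker. Serpina3n had its higher Klf5-/- value in the library with the higher fibroblast sum, and so did Serpinb1a, an order over 2 libraries. The endothelial and immune sums were also higher in that library. In the Klf5+/- libraries Serpina3n (19.0 and 24.2 CPM) again had the order of the fibroblast sum, but Serpinb1a (114 and 110.1 CPM) had the reverse. The 6 erythroid markers were all below 0, with a median of -1.41 and 4 called lower by edgeR, and summed to 322 and 416 CPM in the Klf5-/- libraries against 898 and 944 CPM in the Klf5+/- libraries. The 8 basal keratinocyte markers were all above 0, with a median of 0.57, and none was called by edgeR, with 1 at an unadjusted p under 0.05 and 1 called by DESeq2. At E17.5, after the sort, all 7 fibroblast markers tested were above 0, with a median log2 fold change of 1.69, and none was called by edgeR, with 5 at an unadjusted p under 0.05 and 3 called by DESeq2. Their sum, mostly Dcn, lay between 605.9 and 683.1 CPM in the Klf5-/- libraries and between 418.1 and 568 CPM in the Klf5+/- libraries. The part of these markers in the serpin values was not tested.

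Over the whole genome edgeR's quasi-likelihood test called 5 genes higher (0.0331% of those tested) and 8 lower (0.0530%) in the E17.5 Klf5-/- libraries at an adjusted p of 0.05. Of the 43 Serpina3 and Serpinb genes, 27 were tested at E17.5, with 15 log2 fold changes above 0, 12 below and a median of 0.12. The 1 gene called among them was Serpina3b, higher in Klf5-/-. That call was lost without any 1 library other than the third Klf5-/- library, and without that library 11 of the list were called, 4 higher and 7 lower. For the HFD set edgeR called 1.48% of genes higher and 4.02% lower. There 31 of the list were tested, with 20 above 0, 11 below and a median of 0.72. The 6 called higher were Serpinb6c, Serpina3d-ps, Serpinb11, Serpina3b, Serpina3h and Serpina3i, and the 2 called lower were Serpina3n and Serpinb1a. None of the 8 calls was kept without the first or without the second HFD Klf5+/- library, whereas 18 and 20 of the list were called without the first and without the second Klf5-/- library. A single library left in a group is assumed to vary like the other group. Since the 10 serpins were chosen with such values known, nothing is read from how many of them are among these calls.

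**Figure D3:**
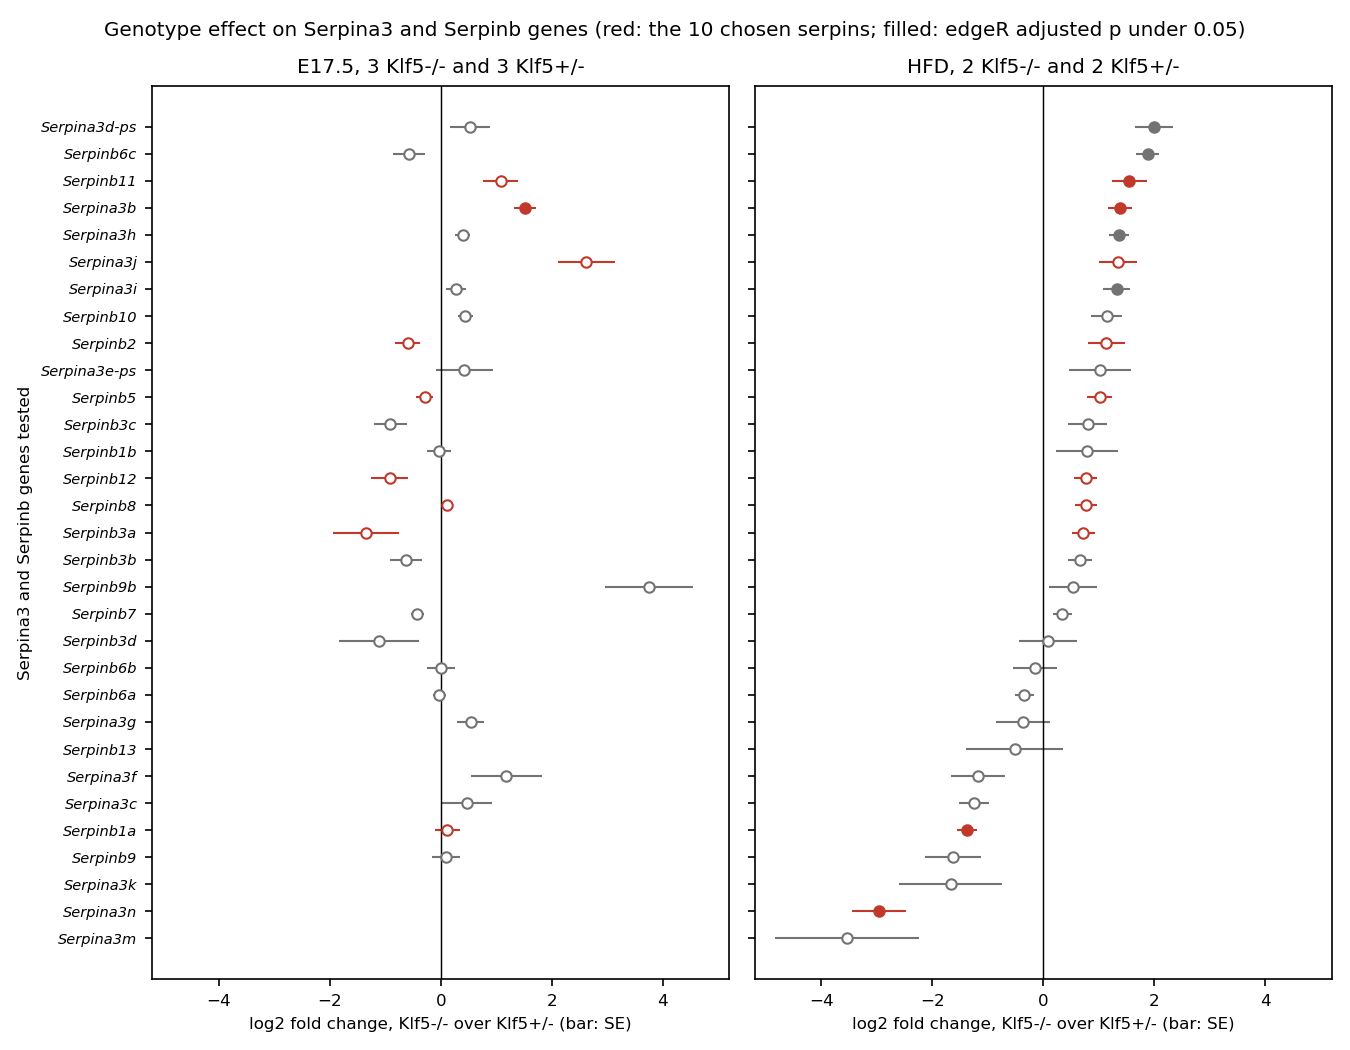
Log2 fold change, Klf5-/- over Klf5+/-, with its SE (bars), for the Serpina3 and Serpinb genes tested in each set, ordered by the HFD value; red points are the 10 chosen serpins and filled points passed edgeR's adjusted p of 0.05. Serpina3b is the 1 filled point at E17.5, and 8 points are filled in the HFD set, with Serpina3n (-2.96) and Serpinb1a (-1.37) to the left of 0.

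Among the called genes that are not of the 10, Serpinb6c had the smallest adjusted p together with Serpina3h. Serpinb6c averaged 172 CPM in the HFD Klf5-/- libraries and 46.6 CPM in the Klf5+/- libraries (edgeR adjusted p = 0.0337, log2 fold change 1.88, SE 0.21). Serpina3h averaged 153 CPM in the Klf5-/- libraries and 59.2 CPM in the Klf5+/- libraries (edgeR adjusted p = 0.0337, log2 fold change 1.37, SE 0.18). Serpina3i, a neighbour of Serpina3j, had a log2 fold change of 1.32 (SE 0.24, edgeR adjusted p = 0.0415). The CPM ranges of the genotypes did not overlap for 5 of the 9 serpins tested at E17.5, where 14.8% of all genes tested did not overlap, and for 10 of 10 in the HFD set, where the share was 60.1%.

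The genotype effects of the sets were compared in 1 fit of all 10 libraries, as the HFD effect minus the E17.5 effect. edgeR called 7.07% of genes higher and 7.61% lower in this difference, and of the 31 listed serpins tested it called 8 higher and 4 lower. Of the 10 serpins, Serpinb5, Serpinb12, Serpinb2 and Serpinb8 were among the higher calls, with differences of 1.32 (SE 0.26), 1.70 (SE 0.44), 1.74 (SE 0.43) and 0.66 (SE 0.19) on the log2 scale. Serpinb1a had a difference of -1.48 (SE 0.23) and was called lower. Serpina3n is the remaining lower call of the 10, but it was under the floor in every E17.5 library, so no E17.5 effect was measured for it and its call is not read as a difference between the sets. Serpinb3a had the largest positive difference of the 10, 2.08, with an SE of 0.74, and was not called. Without the third E17.5 Klf5-/- library its difference was 2.86 and was among the 13 calls of that fit. Serpina3b, Serpina3j and Serpinb11 had differences of -0.13 (SE 0.27), -1.27 (SE 0.68) and 0.48 (SE 0.51) and were not called either. Sorting, preparation and kit differ between the sets too, and their shares in these differences cannot be told apart. Leaving out 1 library at a time gave 4 to 13 called serpins, with 5, 6 and 13 without the E17.5 Klf5-/- libraries in turn, 7, 5 and 5 without the E17.5 Klf5+/- libraries, 11 and 7 without the HFD Klf5-/- libraries and 5 and 4 without the HFD Klf5+/- libraries. Serpinb5, Serpinb1a and Serpinb6c were called in every one of these fits.

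Levels of different genes were compared per exon length, as RPKM computed from the CPM values. At E17.5 Serpinb5 was the highest of the 10, at 305.9 ± 68.7 RPKM in the Klf5-/- libraries and 374 ± 31.0 RPKM in the Klf5+/- libraries (SD, n = 3 each). Serpinb12 came next, at 108 ± 51.1 RPKM in Klf5-/- and 204 ± 27.7 RPKM in Klf5+/-, below every Serpinb5 value of its group. Serpinb3a followed at 30.5 ± 22.8 RPKM in Klf5-/- and 77.4 ± 3.21 RPKM in Klf5+/-. In the Klf5-/- libraries the ranges of Serpinb3a and Serpinb2 overlapped, as did those of Serpinb2 and Serpinb8, Serpinb11 and Serpina3b, and Serpinb1a and Serpina3j. In the Klf5+/- libraries the only neighbours in the order whose ranges overlapped were Serpinb1a and Serpina3b. Serpina3n was last in both groups, at 0.0166 ± 0.0144 RPKM in Klf5-/- and at 0 in Klf5+/-.

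In the HFD set Serpinb5 was again highest, at 579.7 ± 96.7 RPKM in Klf5-/- and 286 ± 13.6 RPKM in Klf5+/- (SD, n = 2 each), and Serpinb12 again second, at 396 ± 5.62 RPKM in Klf5-/- and 233 ± 32.3 RPKM in Klf5+/-. Serpinb1a averaged 22.4 ± 3.46 RPKM in Klf5-/-, below Serpinb8, and 58.0 ± 1.55 RPKM in Klf5+/-, above Serpinb8. Serpina3n was last in Klf5-/-, at 1.36 ± 0.85 RPKM, while in Klf5+/-, at 10.5 ± 1.78 RPKM, it stood above Serpina3b, Serpinb11 and Serpina3j. The ranges of Serpinb2 and Serpinb3a overlapped in both genotypes, as did those of Serpina3b and Serpinb11 and those of Serpinb11 and Serpina3j. Among the listed serpins outside the 10, the highest means over all libraries of the E17.5 set were those of Serpinb3c, Serpinb3b and Serpina3h, at 72.1, 70.0 and 29.9 RPKM. Their order differed between the genotypes, with Serpinb3b above Serpinb3c in Klf5-/- (55.1 and 50.05 RPKM). The annotations of Serpinb3b and Serpinb3c overlap on the same strand, so the split of reads between them, and their order, is uncertain. The annotation of Serpina3h likewise contains that of Serpina3g on the same strand. For the HFD set the highest means outside the 10 were those of Serpinb7, Serpinb6c and Serpinb3c, at 119.9, 79.0 and 68.9 RPKM. In the Klf5+/- libraries alone, however, Serpinb6c (33.7 RPKM) was below Serpinb3c (50.3 RPKM).

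**Figure D4:**
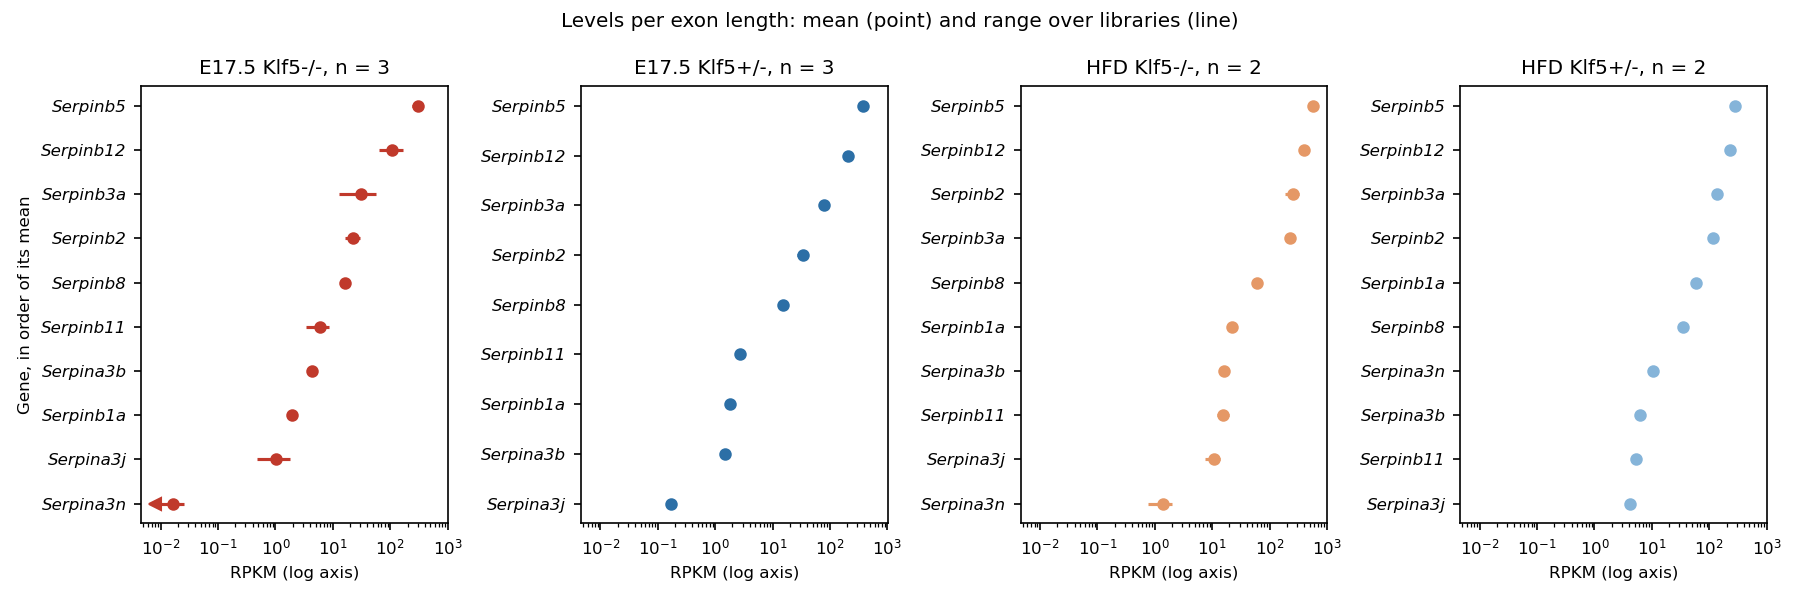
RPKM (x axis, log scale) of the 10 serpins in each group, ordered by mean; points are means and lines the range over libraries, and an arrowhead marks a range that reaches 0. Serpinb5 and Serpinb12 head all 4 groups; Serpina3n is at the foot of the Klf5-/- groups and, being at 0, is not drawn for E17.5 Klf5+/-.

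Across the 10 libraries, after the mean of each set was subtracted, the serpins fell into patterns that can be described by Pearson's r. These points share a library's depth, its cell makeup and the genotype split, so r is a description without a test. Serpinb3a and Serpinb12 had r = 0.961, Serpinb2 and Serpinb12 had r = 0.842, Serpina3b and Serpinb11 had r = 0.888, and Serpina3b and Serpina3j had r = 0.848. Serpinb8 and Serpinb1a ran opposite, with r = -0.855. Of 14105 genes tested in both sets, the one most like Serpinb5 was Hsd17b12 (r = 0.992), a fatty acid elongation enzyme, followed by Glrx2 (r = 0.991). Serpinb12 was most like Akr1d1 (r = 0.986) and Gm11992 (r = 0.982), Serpinb2 most like Wdfy2 (r = 0.986) and Wdr41 (r = 0.966), Serpinb3a most like Adora2b, an adenosine receptor, and Galnt1 (r = 0.965 each), and Serpinb8 most like Dusp11 (r = 0.984) and Grpel2 (r = 0.976). Serpina3b was most like Bglap3 (r = 0.954), followed by Hpgd (r = 0.947), which degrades prostaglandins. Serpina3j was most like Exosc8 (r = 0.937) and Cd72 (r = 0.936), Serpinb11 most like Plekha7 (r = 0.979) and Tmem198 (r = 0.962) and Serpinb1a most like Cul9 (r = 0.984) and Dpy19l1 (r = 0.983).

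Peaks were looked for within 5 kb of each gene start, with an overlap of at least 1 base. The KLF5 list held a peak there for 1 of the 10 serpins, the H3K27ac list for 2 and the ATAC list for 6. Of all genes tested at E17.5, 22.9% had such a KLF5 peak, 63.5% an H3K27ac peak and 84.4% an ATAC peak. Of the 27 listed serpins tested at E17.5 the numbers were 3, 7 and 18. Each list comes from 1 sample, so no test was possible, and fold enrichments and q values are the authors' own.

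The KLF5 peak of Serpinb5 lay at chr1:106860744-106861325 (mm10), with its summit at -165 bases relative to the gene start (negative values are upstream), and it enclosed the whole promoter window printed above. Its fold enrichment was 4.40 and its −log10 q 14.7, which ranked it 427 of 6472 peaks in the list by q. It lay entirely within an ATAC peak, sharing 582 bases, and shared 436 bases with an H3K27ac peak whose fold enrichment was 3.19. Serpinb5 had 2 further ATAC peaks inside the gene, with summits at 1281 and 4838 bases and lower fold enrichments of 2.79 and 3.88, against 8.31 at the promoter. Serpinb5 was thus the serpin of the 10 with the highest level in every group and the one with peaks of all 3 assays at its start.

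Serpinb8 had the strongest ATAC peak of the 10 within the window, with a fold enrichment of 9.50 and rank 2205 of 41905 by q, and its summit lay at 98 bases. A narrow H3K27ac peak of 228 bases lay wholly inside it, with a fold enrichment of 2.93 and a −log10 q of 4.88. Serpinb3a had 1 ATAC peak, with its summit at -82 bases, inside the window printed above, and Serpinb1a had 2, with summits at 83 and 965 bases. The ATAC peak of Serpina3b lay upstream, with its summit at -3854 bases. The ATAC peak of Serpinb2 reached the window only with its edge, at -4955 bases, while its summit lay at -5308 bases and its H3K27ac peak, with a summit at -5241 bases, was just outside. No peak of the 3 assays lay within 5 kb of the starts of Serpina3j, Serpina3n, Serpinb11 or Serpinb12, although Serpinb12 was the second highest of the 10 by RPKM in the same kind of cells.

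**Figure D5:**
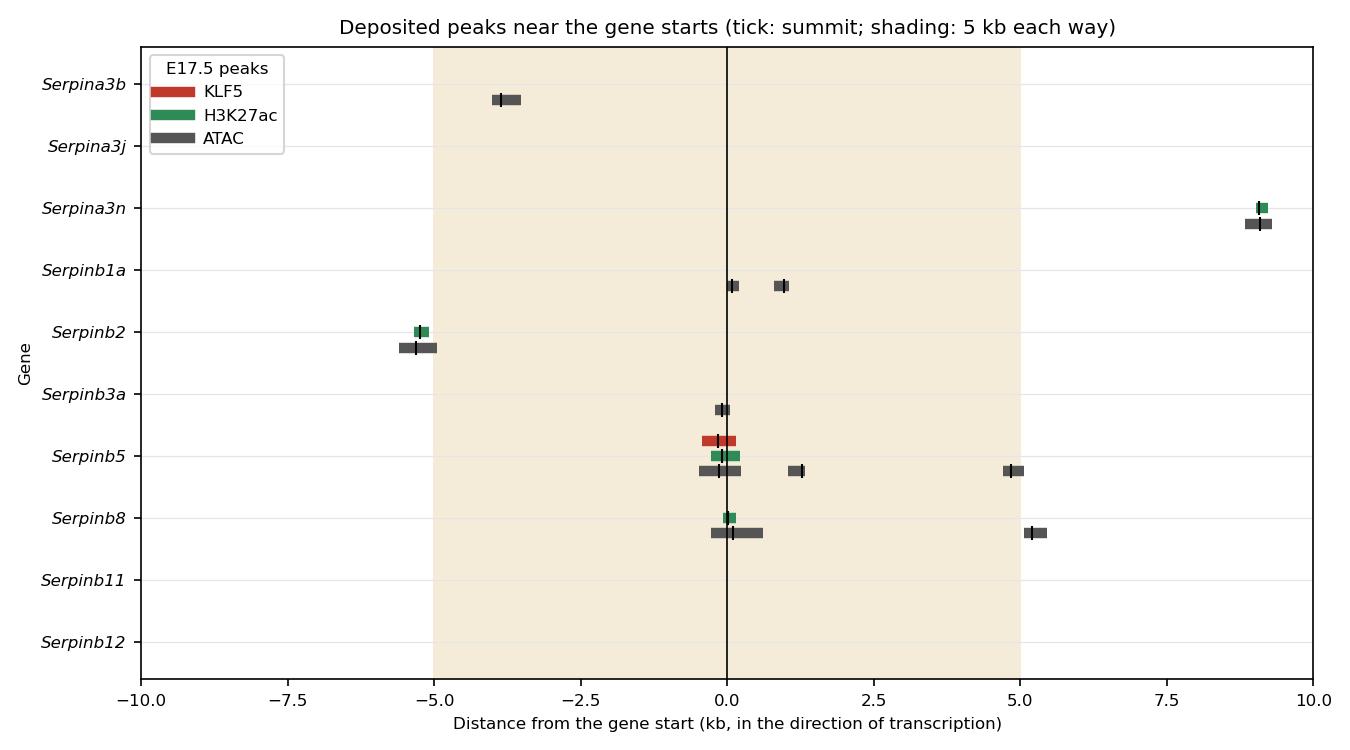
Peaks of the 3 assays by distance from the gene start (x axis, kb, in the direction of transcription), 1 row of genes each; ticks are summits and shading marks 5 kb each way. Peaks of KLF5, H3K27ac and ATAC coincide at Serpinb5, H3K27ac and ATAC at Serpinb8, and 4 genes have no peak in the shaded window.

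The proteases that these serpins are known to inhibit, with the kallikreins and cathepsins of the epidermis, formed a list of 22 genes. At E17.5, 14 were tested, with 9 log2 fold changes above 0 and 5 below, and edgeR called none of them, with 3 at an unadjusted p under 0.05 and 1 called by DESeq2. Of the list 18 were tested in the HFD set, with 12 above 0 and 6 below, and edgeR called 2 higher and 1 lower. A further measure was an unadjusted edgeR p under 0.05, which 8 of the list had, and DESeq2 called 7. Over all genes tested in that set edgeR called 1.48% higher and 4.02% lower. The kallikreins Klk5 and Klk6 rose: Klk5, which cleaves the junctions between shedding corneocytes, averaged 419 CPM in the HFD Klf5-/- libraries and 166 CPM in the Klf5+/- libraries (edgeR adjusted p = 0.0415, log2 fold change 1.34, SE 0.24). Klk6 averaged 58.4 CPM in Klf5-/- and 8.67 CPM in Klf5+/- (edgeR adjusted p = 0.0405, log2 fold change 2.75, SE 0.45). Tissue plasminogen activator, Plat, a target of Serpinb2, was lower: it averaged 5.42 CPM in Klf5-/- and 21.8 CPM in Klf5+/- (edgeR adjusted p = 0.0337, log2 fold change -2.01, SE 0.26). In these Klf5-/- libraries fibroblast and endothelial markers were also lower, with median log2 fold changes of -2.92 and -3.16. Suprabasal keratinocyte markers were higher there, with a median of 0.91. The part of these markers in the protease values was not tested. In the difference between the sets edgeR called 6 proteases, Klk5, Klk7, Ctsl, Ctsh, Ctsd and Prss8, of which Ctsl alone was lower. Over all genes tested, 7.07% were called higher and 7.61% lower in this difference. The highest proteases by mean RPKM over all libraries of a set were Ctsd, Ctsl and Klk7 at E17.5 (108, 55.2 and 37.2 RPKM) and Klk7, Cma1 and Ctsd in the HFD set (738, 357 and 271 RPKM), where Cma1, the mast cell chymase, averaged 90.0 ± 116 RPKM in Klf5-/- and 625 ± 5.01 RPKM in Klf5+/- (SD, n = 2 each). Urokinase, Plau, the other target of Serpinb2, averaged 35.2 CPM in Klf5-/- and 25.4 CPM in Klf5+/- and was not called. The furin gene, Furin, whose product Serpinb8 inhibits, averaged 73.1 CPM in Klf5-/- and 55.1 CPM in Klf5+/- and was not called. Of the targets of Serpinb1a, the neutrophil elastase gene Elane had 0 counts in each HFD Klf5-/- library and 1 and 6 in the Klf5+/- libraries. These lie near the floor of 3 counts, and Elane was not tested. The proteinase 3 gene Prtn3 had 4 and 2 counts in Klf5-/- and 49 and 9 in Klf5+/- and was not tested in the HFD set either. The cathepsin G gene Ctsg averaged 0.512 CPM in Klf5-/- and 2.04 CPM in Klf5+/- and was not called (edgeR adjusted p = 0.0929).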

How the data were processed

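RNA was sequenced in 10 libraries and chromatin in 1 sample for each assay. Per gene, the authors deposited unnormalised read counts; the submitters' processing notes name STAR 2.6.0b, HTSeq and mm10. The sources used here do not state the strand setting. For peaks the submitters' processing notes name MACS2, Bowtie2 2.2.3 and Bowtie 1.0.1, and neither a control library nor a threshold is stated in the sources used here. The deposited lists give a fold enrichment, a ratio over local background, and a −log10 q for each peak, which served to describe peaks and to rank and filter them within a list. Human HaCaT lists and an IgG sample were not used here.

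Groups came from the genotype labels and titles. Reads that named no gene (13.38 to 16.85%) stayed out of library sizes and tests. E17.5 and HFD libraries were fitted separately in R 4.3.3 with edgeR 4.0.16 (TMM scaling, filterByExpr, robust quasi-likelihood, Benjamini-Hochberg over all genes tested), with an adjusted p of 0.05 as threshold. SE is the log2 fold change divided by the square root of F. The difference between sets was a contrast in 1 fit of all 10 libraries. RPKM is CPM per kilobase of exon length, and centred patterns used a pseudocount of 0.5 CPM. DESeq2 1.42.0, other size factors, no filter, a replicate block, other windows and leaving out each library were alternatives. Libraries may share animals, so p-values reflect the spread between these libraries, and counting floors cover counting error only. The serpins and all lists were chosen with earlier results of these data known. Named genes were the 10 serpins, the listed serpins and proteases called by edgeR in a fit, the 3 highest other serpins and proteases of each set by mean RPKM, and the 2 genes most correlated with each serpin that passed the filter in both sets. Serpina3c, and the proteases Plau, Furin, Elane, Prtn3 and Ctsg, were named outside this rule after their values were seen. Promoter windows came from RefSeq (GRCm38.p6), searched with Biopython 1.88.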

Additional observations from a re-analysis of the deposited data

Results flagged for a closer look

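For 11 of the listed serpins the genotype effect differed between the sets, as judged by edgeR's test of the HFD effect minus the E17.5 effect at an adjusted p of 0.05. Over all genes tested, 7.07% were called higher and 7.61% lower in this difference. The calls were not equally firm: only those of Serpinb5, Serpinb1a and Serpinb6c were kept whichever E17.5 library was left out. Higher differences, on the log2 scale, were 2.47 for Serpinb6c, 1.74 for Serpinb2, 1.70 for Serpinb12, 1.32 for Serpinb5, 1.06 for Serpina3i, 0.98 for Serpina3h, 0.78 for Serpinb7 and 0.66 for Serpinb8. Lower differences were -1.48 for Serpinb1a, -1.70 for Serpinb9 and -3.22 for Serpinb9b. The size of the Serpinb9b value is uncertain, since its E17.5 Klf5+/- counts were 2, 5 and 2, near the floor of 3 counts. Serpina3n passed the same threshold with a fitted value of -6.38, but it was under the floor of 3 counts in every E17.5 library, so no E17.5 effect was measured and the value is not read as a difference between the sets. Those of Serpinb5, Serpinb12, Serpinb2, Serpinb8 and Serpinb1a are a description, since these genes were chosen from the same values. Sorting, preparation and kit also differ between the sets, and their shares cannot be told apart.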

How the results depend on the processing

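At E17.5, edgeR called 13 genes, against 441 with DESeq2, 237 without the filter on low counts, 42 with the replicate block and 0 to 513 with 1 library left out. The listed serpins called were 1, against 5 with DESeq2, 3 without the filter and 0 to 11 with 1 library left out. In the HFD set 872 genes were called, against 2829 with DESeq2, 2396 without the filter, 1520 with the replicate block and 19 to 5389 with 1 library left out. The listed serpins called were 8, against 16 with DESeq2, 17 without the filter, 12 with the replicate block and 0 to 20 with 1 library left out. For the difference between sets 2534 genes were called, with 1266 to 4467 when 1 library was left out, and 12 serpins, with 4 to 13. The count of serpins with an H3K27ac peak was 2, against 1 with a −log10 q of at least 5 and 4 with a window of 10 kb. The causes of these shifts were not tested, beyond the fewer libraries or other genes that each setting uses.

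The labels do not tie same-numbered libraries together. At E17.5 their deviations did not correlate throughout (0.049, -0.118 and 0.245), and not every library correlated best with its own number. With 2 libraries a group the HFD check gives a single value (0.214), which cannot decide the matter. With the replicate block 7 of the 8 HFD serpin calls and 9 of the 12 difference calls were kept. In the HFD set the block lost Serpinb11 and added Serpina3c, Serpina3j, Serpinb10, Serpinb5 and Serpinb8, and in the difference it added Serpina3c and Serpinb3b, for 11 calls in all. No call of a single serpin changed direction under the alternatives run. The small log2 fold change of Serpinb1a at E17.5 and the difference of Serpina3b, neither of them called, each changed sign under 1 alternative. With 2 libraries a group, HFD calls rest on both Klf5+/- libraries.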

Other observations

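Serpins of the same clades outside the 10 showed further patterns. Serpinb7, a lysine-specific protease inhibitor of the upper epidermis, averaged 43.0 CPM in the E17.5 Klf5-/- libraries and 57.5 CPM in the Klf5+/- libraries (log2 fold change -0.42, SE 0.11), without overlap and not called. In the HFD set Serpinb7 averaged 261 CPM in Klf5-/- and 206 CPM in Klf5+/- (log2 fold change 0.34, SE 0.17). Serpinb9b averaged 1.07 CPM in the E17.5 Klf5-/- libraries and 0.0808 CPM in the Klf5+/- libraries (edgeR adjusted p = 0.108, log2 fold change 3.76, SE 0.79). Its counts were 21, 86 and 19 in Klf5-/- and 2, 5 and 2 in Klf5+/-. The Klf5+/- level thus lay near the floor of 3 counts, and the second library carried most of the Klf5-/- mean. Serpina3c, another gene of the chromosome 12 cluster, averaged 8.70 CPM in the HFD Klf5-/- libraries and 20.7 CPM in the Klf5+/- libraries (edgeR adjusted p = 0.0509, log2 fold change -1.25, SE 0.26), and so lay on the side of Serpina3n.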
